A study of Mus musculus with 3 samples.

Results

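Cytochrome P450 genes were described in EpH4-PR cells. EpH4 is an epithelial line from mouse mammary gland, and EpH4-PR carries a stable transfection of the A form of the progesterone receptor (PR-A). Members were taken by name, as every non-control probe whose gene symbol on the array is Cyp followed by a family number, a subfamily letter and a member number, with the sterol synthesis gene Cyp51 left out. This gave 97 probes for 70 genes, of 41174 probes for 29273 genes on the array. RNA of EpH4-PR cells, grown in DMEM with 10% FBS to about 75% confluence, was hybridised on 3 Agilent whole mouse genome arrays. On each array the EpH4-PR RNA carried Cy5 and a commercial mouse reference RNA, a Stratagene standard mixed from other mouse cells, carried Cy3, with no dye swap. EpH4-EV control cells were not analysed here, so every ratio below sets EpH4-PR cells against that reference and none measures an effect of PR. Whether the 3 arrays are separate cultures is not stated, so the p-values measure the spread between these arrays, which may be technical. A lower ratio cannot tell fewer cells with a transcript from less transcript per cell.

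Cytochrome P450 enzymes are haem proteins that insert an oxygen atom into lipids, steroids and foreign chemicals, with electrons handed over by a redox partner. Families 1 to 3 are best known for the metabolism of drugs and other foreign compounds in liver and gut, family 4 and subfamily 2j for fatty acids and eicosanoids, and the higher numbered families for steroid hormones, bile acids, vitamin D and retinoic acid. Most are abundant in liver, adrenal or gonad, and only a few are known mainly from other epithelia.

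The data gave a family that was dim and had log2 ratios near 0, with 4 exceptions. Cyp7b1, the oxysterol 7-alpha-hydroxylase, was higher in EpH4-PR RNA than in the reference, and Cyp2s1, Cyp1b1 and Cyp2c55 were lower on 1 probe each. By limma with Benjamini-Hochberg adjustment over all probes, calls required an adjusted p below 0.05 together with a ratio of 1 log2 unit or more in either direction. For the higher direction 1 of 97 Cyp probes (1.03%) was called against 2.26% of all probes, and for the lower direction 3 of 97 (3.09%) against 3.83%. The counts over all probes were 932 higher and 1578 lower, and median centring in place of loess turned that split to 7031 higher and 708 lower, with 2 Cyp probes on each side. The median log2 ratio of the Cyp probes was -0.05 and that of all probes -0.01. Within 0.5 log2 units of 0 lay 90 Cyp probes (92.8%) and 79.2% of all probes. On all 3 arrays, 8 of the 97 Cyp probes exceeded the negative control limit given below in both channels, and 45 did so in neither. Without signal in both channels, a ratio near 0 does not show that the levels in EpH4-PR cells and the reference were alike. With no offset in the background correction the Cyp calls became 2 higher and 6 lower. How far low signal narrowed the ratios was not tested.

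Detection was read first, since it limits every ratio. In the EpH4-PR channel 47 of 70 Cyp genes (67.1%) had a probe that the scanner software marked as well above background on all 3 arrays, and so had 69.7% of all genes. Another 10 Cyp genes passed in that channel on 1 or 2 arrays, 6 passed on 1 or 2 arrays in the reference channel alone, and 6 passed in neither channel. Only Cyp8b1, the sterol 12-alpha-hydroxylase of bile acid synthesis, was well above background in the reference on all 3 arrays and in EpH4-PR cells on none (1.43% of Cyp genes, 2.48% of all genes).

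The 314 negative control spots of each array, which match no mouse transcript, showed how far these marks can be read. Of them 4.78%, 5.1% and 0.64% were marked as well above background in Cy5 on arrays 1, 2 and 3, but 53.5%, 47.45% and 46.5% were so marked in Cy3. The Cy3 intensity of Cyp8b1 was 126, 132 and 101 on the 3 arrays, under the 95th percentile of the negative controls (162, 168 and 107). The reference signal of Cyp8b1 therefore lay within the range of spots without a target. Its log2 ratio of -0.23, -0.25 and -0.11 was likewise near the median of the negative controls (-0.21, -0.20 and -0.17), so no fold is given.

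Against the 99th percentile of the negative controls the EpH4-PR channel kept 45 of 70 Cyp genes (64.3%, against 65.9% of all genes), and no Cyp gene was seen in the reference alone. Cyp24a1 and Cyp2d13 were the genes lost by this stricter limit. By probe, 52 of the 97 Cyp probes (53.6%, against 64.7% of all probes) exceeded the limit in Cy5 on all 3 arrays. In Cy3 8 Cyp probes did (8.25%, against 30.4% of all probes), and those 8 also exceeded it in Cy5. Signals stayed low: 16 Cyp probes (16.5%), each of another gene, reached at least 2 times the median negative control in Cy5 on every array, against 38.7% of all probes. In Cy3 3 Cyp probes did so, those of Cyp20a1, Cyp2c55 and Cyp2s1 (3.09%, against 20.3% of all probes).

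**Figure D1:**
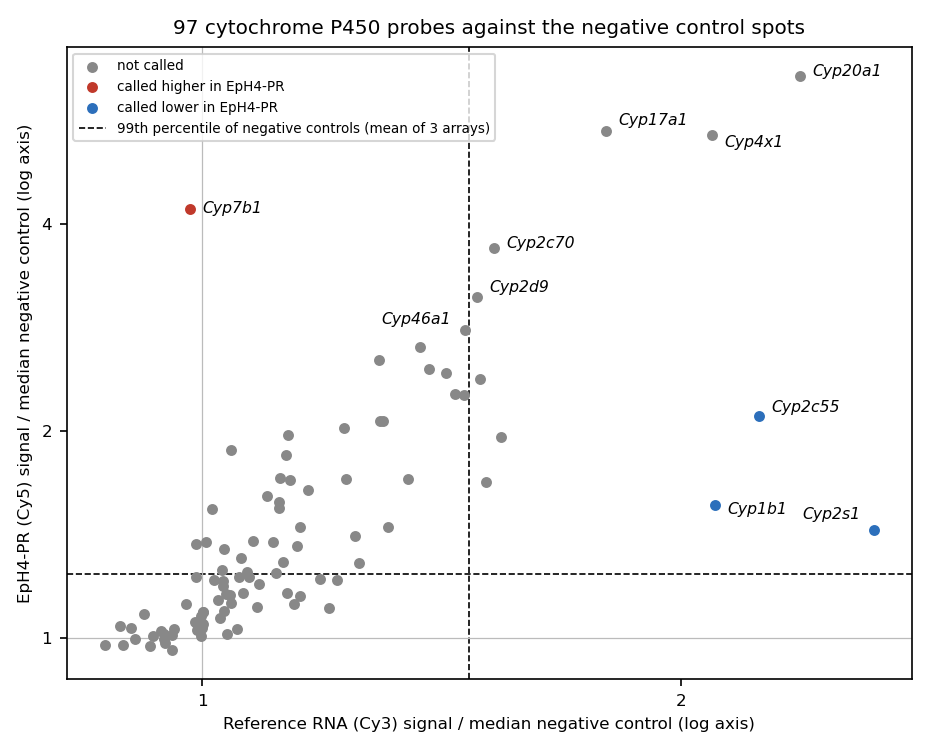
Each point is 1 of the 97 Cyp probes, with its signal divided by the median negative control of the same array and averaged over 3 arrays, for the reference (x, log axis) and EpH4-PR cells (y, log axis). Dashed lines mark the 99th percentile of the negative controls in the same intensity, background included. Counts in the text use the scanner's processed intensity, so they need not follow these lines. Most probes lie near the lower left corner. Cyp7b1 is at 4.22 in Cy5 and 0.983 in Cy3, and the 3 probes called lower lie on the right.

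Detection in EpH4-PR cells by role is given as counts, since most groups held few genes. Of all genes 69.7% were detected by the scanner mark and 65.9% under the negative control limit. By the scanner mark, both retinoic acid hydroxylases, 5 of 6 bile acid and sterol genes, 12 of 16 fatty acid and eicosanoid genes and 20 of 33 genes of the drug metabolising subfamilies were detected on all 3 arrays. Steroid synthesis gave 3 of 5 genes, vitamin D 2 of 3, and the Cyp1 family 1 of 3. Under the negative control limit the drug group became 19 and vitamin D became 1, with the other groups as before.

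Cyp7b1, which adds a 7-alpha hydroxyl group to oxysterols and to steroids such as dehydroepiandrosterone, was the only Cyp probe called higher. Its intensity in the EpH4-PR channel was 307, 258 and 283 on arrays 1, 2 and 3. In the reference channel it was 116, 118 and 91.8, not well above background on any array and next to the median negative control (119.5, 121.5 and 91.8). The log2 ratio was 1.55, 1.29 and 1.41, with a mean of 1.42 ± 0.13 (SD, n = 3 arrays; limma adjusted p = 7.3e-05). The mean corresponds to a level 2.68-fold higher in EpH4-PR cells. With the reference at the level of the negative controls, the size of this fold is uncertain. The log2 ratio ran from 1.35 to 1.48 with each array left out and was 1.37 from the median spot intensity. With no offset in the background correction the log2 ratio was 2.94 and in the scanner software's own ratio 3.89.

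Cyp2s1, a P450 of extrahepatic epithelia that is induced by dioxin, had the lowest ratio of the family. Its RefSeq probe read 96, 109 and 87.2 in EpH4-PR cells and 296, 300.0 and 274 in the reference. The log2 ratio was -2.11, -2.06 and -2.31 (mean -2.16 ± 0.13 SD, n = 3 arrays; limma adjusted p = 2.9e-05). This EpH4-PR intensity, background included, was above the 99th percentile of the same intensity in negative controls on each array (94.5, 94.2 and 66.1). The margin was small on array 1. A second probe, designed on a cDNA clone record, was well above background in EpH4-PR cells on no array and had a mean log2 ratio of -0.17 ± 0.14.

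Cyp1b1, which hydroxylates oestradiol and activates polycyclic hydrocarbons outside the liver, followed the same form. The RefSeq probe read 116, 104 and 96.3 in EpH4-PR cells against 250.5, 232 and 211 in the reference. The log2 ratio was -1.51, -1.51 and -1.67 (mean -1.56 ± 0.09 SD, n = 3 arrays; limma adjusted p = 3.9e-05). The cDNA clone probe of Cyp1b1 was at -0.02 ± 0.15 and was well above background in EpH4-PR cells on no array.

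Cyp2c55, a member of the Cyp2c subfamily that oxidises arachidonic acid, had 1 probe. It read 153, 153.5 and 123 in EpH4-PR cells and 266, 263 and 213 in the reference. The log2 ratio was -1.35, -1.40 and -1.44 (mean -1.40 ± 0.04 SD, n = 3 arrays; limma adjusted p = 3.2e-05). The called probes of all 3 genes exceeded the 99th percentile of negative controls in both channels on every array. Raw intensities do not compare directly between channels, since the negative controls were brighter in Cy3 too. Over the median negative control, Cy5 and Cy3 were 1.44 and 2.64 for Cyp2s1, 1.56 and 2.10 for Cyp1b1, 2.11 and 2.24 for Cyp2c55.

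The size of these log2 ratios depended on the background step. With no offset they were -3.31 for Cyp2s1, -2.48 for Cyp1b1 and -2.01 for Cyp2c55, and in the scanner software's ratio -3.52, -2.69 and -2.01. Median centring left Cyp2s1 at -1.66 and Cyp1b1 at -1.15 but moved Cyp2c55 to -0.80, which is short of 1 log2 unit.

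The promoters of the 3 lower genes are shown because a receptor known to act on Cyp1b1 and Cyp2s1, Ahr, is among the regulators described further on. Each runs from 250 bases before to 50 bases after the transcription start in RefSeq (GRCm38.p6), on the strand of the gene: Cyp1b1 at chr17:79715012-79715311 (minus strand), Cyp2s1 at chr7:25816476-25816775 (minus strand) and Cyp2c55 at chr19:39006769-39007068 (plus strand). Capitals mark GCGTG, the core of the dioxin response element, or its reverse complement.
Cyp1b1: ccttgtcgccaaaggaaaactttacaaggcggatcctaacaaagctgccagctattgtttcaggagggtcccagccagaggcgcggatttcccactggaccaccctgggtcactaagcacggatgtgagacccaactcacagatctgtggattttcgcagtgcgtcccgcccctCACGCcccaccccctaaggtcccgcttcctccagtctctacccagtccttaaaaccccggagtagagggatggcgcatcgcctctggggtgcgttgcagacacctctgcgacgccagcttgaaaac
Cyp2s1: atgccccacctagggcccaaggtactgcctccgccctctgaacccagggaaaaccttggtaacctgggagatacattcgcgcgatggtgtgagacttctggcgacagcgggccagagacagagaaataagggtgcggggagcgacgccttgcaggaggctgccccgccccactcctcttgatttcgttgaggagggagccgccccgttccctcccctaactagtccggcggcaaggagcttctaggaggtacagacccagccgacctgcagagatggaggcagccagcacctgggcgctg
Cyp2c55: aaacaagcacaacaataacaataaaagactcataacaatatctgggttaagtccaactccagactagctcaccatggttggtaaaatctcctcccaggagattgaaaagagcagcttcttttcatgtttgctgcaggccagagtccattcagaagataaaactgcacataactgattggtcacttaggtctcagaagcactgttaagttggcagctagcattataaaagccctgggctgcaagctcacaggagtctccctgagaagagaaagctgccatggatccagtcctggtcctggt

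GCGTG was searched on both strands and was found once in the Cyp1b1 window, on the opposite strand. The first base of the marked stretch, as printed, is at -76 from the start. GCGTG was not in the windows of Cyp2s1 and Cyp2c55. The same letters were in 32.4% of all 32851 promoters and in 12 of the 61 Cyp genes with a promoter sequence (19.7%). TGTTCT, a hexamer bound by the progesterone receptor, was in none of the 3 windows, in 19% of all promoters and in 13 of the 61 (21.3%).

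Other genes of bile acid and sterol metabolism differed from the reference by less than 1 log2 unit. Cyp39a1, an oxysterol 7-alpha-hydroxylase, was lower on both of its probes, at -0.59, -0.57 and -0.75 on the first (mean -0.64, limma adjusted p = 0.00059) and -0.36, -0.42 and -0.30 on the second (mean -0.36, limma adjusted p = 0.0025). Cyp46a1, the enzyme that makes a side chain oxysterol in brain, read 208, 185 and 175 in EpH4-PR cells and 186, 171 and 131 in the reference, where it passed the 99th percentile of negative controls on 2 of 3 arrays, and its log2 ratio of -0.09 did not pass the test. Cyp27a1, the sterol 27-hydroxylase, was at -0.13 with arrays between -0.33 and 0.09. Cyp7a1, the rate-limiting enzyme of bile acid synthesis, was well above background in EpH4-PR cells on both probes. Both were dim there, at 1.38 and 1.20 times the median negative control. In the reference neither probe exceeded the 99th percentile of negative controls on any array. Their ratios were 0.10 and -0.09, neither past the test.

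No gene of steroid hormone synthesis was called. Cyp17a1, the 17-alpha-hydroxylase, had a signal of 369, 400.0 and 339 in EpH4-PR cells and 205, 220.0 and 170.5 in the reference. Its log2 ratio was 0.25, 0.18 and 0.20 (mean 0.21, limma adjusted p = 0.013), and median centring raised it to 1.03. The 2 channels of Cyp17a1 were both above the 99th percentile of negative controls on every array. Cyp11a1, which cuts the cholesterol side chain, passed in EpH4-PR cells on 2 of 3 arrays on each of 2 probes. Cyp11b2, the aldosterone synthase, passed on no array there. Cyp19a1 (aromatase) had 1 probe detected of 2, at -0.02, and Cyp21a1 (21-hydroxylase) was detected at -0.04. Of the other steroidogenic markers Star, Hsd3b1, Nr5a1 and Lhcgr, 3 of 4 were detected, against 69.7% of all genes. Of their 7 probes 0 were called, and their summed Cy5 signal was 580.0 to 747.

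Of the vitamin D genes, Cyp27b1, the 1-alpha-hydroxylase, was detected on both probes, which differed in sign. The brighter probe read 182, 181 and 141 in EpH4-PR cells and had a log2 ratio of -0.12 that did not pass the test, and the dimmer one was at 0.26 (limma adjusted p = 0.035). Cyp24a1, which inactivates vitamin D, was at 0.09 and near the limit of detection. Cyp2r1, which makes its circulating form, was well above background in neither channel on any array. Both retinoic acid hydroxylases were detected in EpH4-PR cells. Cyp26b1 read 164, 166 and 131 there against 174, 173.5 and 132.5 in the reference, and was lower at -0.28 ± 0.02 (limma adjusted p = 0.0045). On every array the Cyp26b1 ratio lay between the 5th and 95th percentile of the negative control ratios. Its sign turned to 0.11 with median centring. Cyp26a1 was at -0.66, -0.73 and 0.30, so its arrays disagreed.

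**Figure D2:**
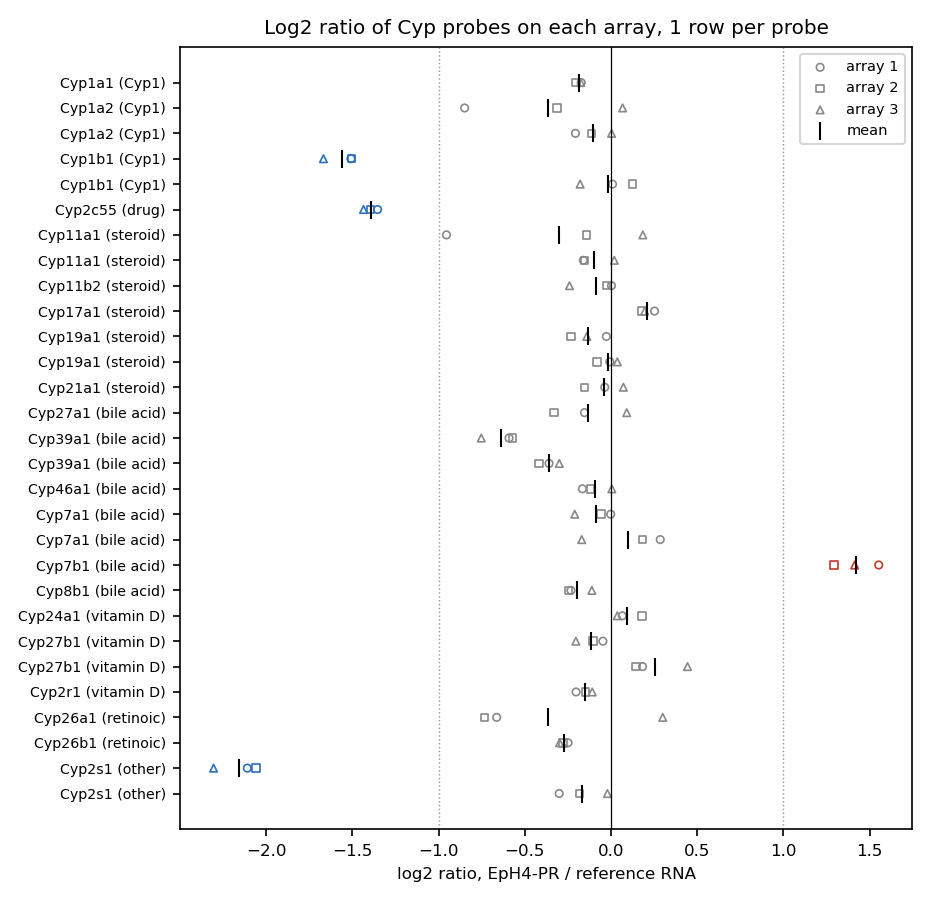
Log2 ratio (EpH4-PR cells over the reference) on each of 3 arrays (symbols) with the mean (bar), 1 row per probe, for the role groups with few members and for Cyp2c55 and Cyp2s1. Cyp7b1 stands to the right at 1.42, the called probes of Cyp1b1, Cyp2c55 and Cyp2s1 to the left, and the rest lie within 1 log2 unit of 0.

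In the Cyp1 family the genes other than Cyp1b1 were not seen. Cyp1a1, the classic dioxin induced P450, read 68, 71.1 and 56.6 in EpH4-PR cells and 112, 115 and 90.7 in the reference, below the median negative control in each case. Its log2 ratio was -0.18 on a signal without a detected level. Cyp1a2, a caffeine metabolising liver P450, was marked on 2 arrays on 1 of 2 probes and never exceeded the 99th percentile of negative controls.

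The drug metabolising subfamilies, the largest group with 33 genes and 46 probes, had a median log2 ratio of -0.03 and 1 call, Cyp2c55. Among those detected, the highest ratios were on probes of Cyp2a4 (0.47, limma adjusted p = 0.007), Cyp2c37 (0.30, adjusted p = 0.039), Cyp2g1 (0.26, adjusted p = 0.018) and Cyp2b13 (0.25, adjusted p = 0.094). The lowest after Cyp2c55 were Cyp2d26 (-0.58, limma adjusted p = 0.0073), Cyp2c29 (-0.40, adjusted p = 0.041) and the second probe of Cyp2c37 (-0.31, adjusted p = 0.0039). Cyp2e1, the ethanol oxidising P450, passed in EpH4-PR cells on no array, and Cyp3a11, the main hepatic Cyp3a enzyme, was detected with a ratio of 0.07; both were named after their values were seen. Hepatocyte markers (Alb, Apoa1, Ttr, Fgb and Tat) had 3 of 5 genes detected, against 69.7% of all genes. Of their 5 probes 0 were called, with a summed Cy5 signal of 604 to 701. Within this group Cyp2c70, which makes muricholic acids in mouse liver, read 247, 272 and 229 in EpH4-PR cells and Cyp2d9 read 214, 236 and 189. Both had ratios near the reference (0.11 and 0.00, neither past the test), and they are named after their values were seen. Several Cyp2a, Cyp2b, Cyp2c, Cyp2d and Cyp3a genes are close paralogues, and a probe of one may take up transcript of another, so the identity of a dim signal within these subfamilies is uncertain.

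The fatty acid and eicosanoid group had no call among 22 probes, and its log2 ratios ran from -0.42 to 0.34. Cyp4f16 was above the reference on 1 probe (0.34, limma adjusted p = 0.0023) and Cyp2j13 on 1 (0.19, adjusted p = 0.017), while Cyp4a10 (-0.38, adjusted p = 0.0052) and Cyp4f13 (-0.32, adjusted p = 0.0097) were below it. Cyp4x1 read 395, 358 and 339 in EpH4-PR cells and 253, 228 and 208.5 in the reference, above the 99th percentile of negative controls in both channels, with a ratio of -0.10 that did not pass the test. Cyp20a1, a P450 without an established substrate, was alike at 446, 421 and 453 against 271.5, 263 and 247 (ratio -0.12, limma adjusted p = 0.06). These 2 genes were also named after their values were seen.

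Many of the small ratios lay within the range of the negative controls. After normalisation the negative control spots themselves had a median log2 ratio of -0.21, -0.20 and -0.17 on arrays 1, 2 and 3. Of the 28 Cyp probes with an adjusted p under 0.05 (28.9%, against 50.3% of all probes), 19 were below 0 and 9 above. Of the 19, 14 lay between the 5th and 95th percentile of the negative control ratios on every array, and 3 lay below that range on every array, those of Cyp2s1, Cyp1b1 and Cyp2c55. The 14 included the probes of Cyp26b1, Cyp2d26, Cyp4f13 and Cyp4a10 named above, the second Cyp39a1 probe and the lower Cyp2c37 probe. All 9 probes above 0 were above the 95th percentile, which was between -0.02 and 0.02, on every array. They belonged to Cyp7b1, Cyp2a4, Cyp4f16, Cyp2c37, Cyp2g1, Cyp27b1, Cyp17a1, Cyp2j13 and Cyp2c66. Because the control ratios were centred below 0, nearly any ratio above 0 exceeds that limit, so passing it adds little to the sign. Only the Cyp17a1 probe among them exceeded the 99th percentile of negative controls in Cy3 on every array.

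A gene was measured by several probes in 26 cases. The median spread between probes of a gene was 0.23 log2 units, and 4 genes exceeded 0.5, namely Cyp2s1 (1.99), Cyp1b1 (1.55), Cyp2c37 (0.60) and Cyp2a4 (0.55). For Cyp2s1, Cyp1b1 and Cyp2a4, 1 of the 2 probes was not detected in EpH4-PR cells on all arrays. For Cyp2c37 both were, with opposite signs that each passed the test. Cyp2j13 also had a probe on each side of 0 past the test (0.19 and -0.25), but its lower probe was well above background in EpH4-PR cells on no array.

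**Figure D3:**
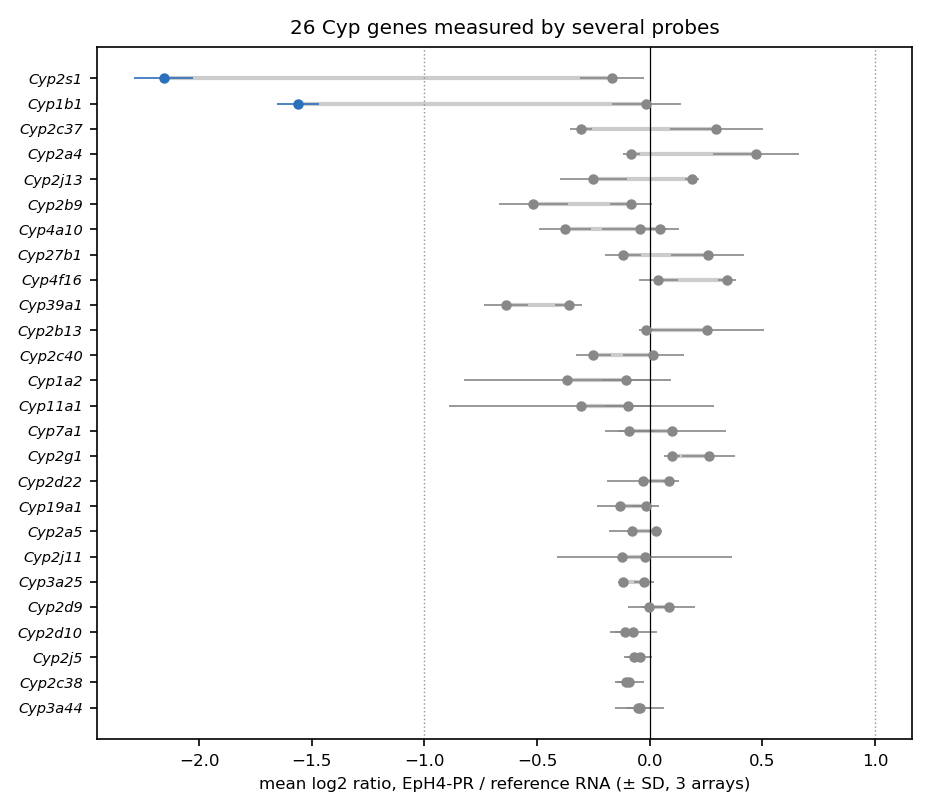
Mean log2 ratio ± SD over 3 arrays for each probe of the 26 Cyp genes with more than 1 probe, ordered by the spread within the gene. The called probes of Cyp2s1 and Cyp1b1 lie 1.99 and 1.55 log2 units from the other probe of the gene.

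The family's narrow range of ratios came with lower correlations between arrays. Across the 97 probes, which are not independent, the Pearson correlation of log2 ratios was 0.9 between arrays 1 and 2, 0.76 between 1 and 3 and 0.842 between 2 and 3, against 0.952, 0.923 and 0.929 across all probes. The median SD between arrays was 0.09 for both sets. The widest SD was that of Cyp2f2, the naphthalene oxidising P450 of lung (0.59), with log2 ratios of -0.61, 0.22 and 0.54 and a Cy3 intensity of 181, 121 and 90.7. Cyp26a1 and Cyp4f14 also had a brighter Cy3 signal on arrays 1 and 2 (177 and 176, 154 and 159) than on array 3 (91.8 and 76.4). The part of these spots in the ratios was not tested, and Cyp2f2 and Cyp4f14 were named after their values were seen.

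Of the proteins that hand electrons to P450s or bind them, all 7 genes on the list were detected in EpH4-PR cells, and of 11 probes 2 were called higher and 2 lower. Over the array, 69.7% of genes were detected, and 2.26% of probes were called higher and 3.83% lower. Por, the reductase of microsomal P450s, read 5664, 4939.9 and 5624 in EpH4-PR cells and was at -0.23 ± 0.00 (limma adjusted p = 0.008). Cyb5b, the mitochondrial outer membrane cytochrome b5, was called higher on both probes, at 1.70 and 1.38 (limma adjusted p = 2.1e-05 and 8.1e-05). Cyb5a, the microsomal cytochrome b5, lay on the other side at -0.58 (limma adjusted p = 0.00056), without a call. Cyb5r3, the cytochrome b5 reductase, was called lower on 1 of 2 probes (-1.04, limma adjusted p = 6.6e-05), with 0.25 after median centring. Pgrmc1, a haem binding protein that associates with P450s, was called lower (-1.14, limma adjusted p = 5.5e-05), with 0.05 after median centring. Fdxr and Fdx1 serve the mitochondrial P450s. Fdxr was at -0.96 (limma adjusted p = 7.3e-05), just short of 1 log2 unit, and the 3 probes of Fdx1 lay between -0.08 and 0.23.

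P450s named otherwise gave 3 calls on 6 probes, 2 higher and 1 lower, against 2.26% and 3.83% of all probes. Cyp51, the lanosterol 14-alpha-demethylase left out by the naming rule, was called higher on 2 of 3 probes (1.10 and 1.15), with 0.73 on the third. Ptgis, the prostacyclin synthase, was called lower (-1.04, limma adjusted p = 0.0001), a call that median centring ended (-0.71), and Tbxas1, the thromboxane synthase, was not called on either probe (0.11 and -0.16).

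Ahr, the aryl hydrocarbon receptor that switches on Cyp1 genes, was called lower. It read 203, 192 and 178 in EpH4-PR cells and 266, 267 and 249.5 in the reference, for a log2 ratio of -1.16 ± 0.14 (limma adjusted p = 0.00015). Its partner Arnt was called lower on 1 of 4 probes (-1.46, limma adjusted p = 2.9e-05), while the others were at 0.02, 0.02 and 0.42. Among 5 other genes of the dioxin response, 3 of 9 probes were called lower and 0 higher, against 3.83% and 2.26% of all probes. Tiparp (-1.15, limma adjusted p = 6.9e-05), Nqo1 (-1.10, adjusted p = 5.2e-05) and 1 of 4 probes of Nfe2l2 (-1.13, adjusted p = 0.00017) were called lower, and Aldh3a1 (0.33) and both Gsta1 probes (-0.30 and 0.05) were not. Median centring ended each of these calls, with Ahr at -0.44, Arnt at -0.43, Tiparp at -0.11, Nqo1 at 0.03 and Nfe2l2 at -0.76. Over all 17 receptors of the list, 12 were detected, where 69.7% of all genes were, and 2 of 27 probes were called lower and 0 higher. Vdr, the vitamin D receptor, was at 0.81 (limma adjusted p = 0.0012). Crabp2, a retinoic acid binding protein on the list of steroid and retinoid partners, was at 0.86 and was not called.

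**Figure D4:**
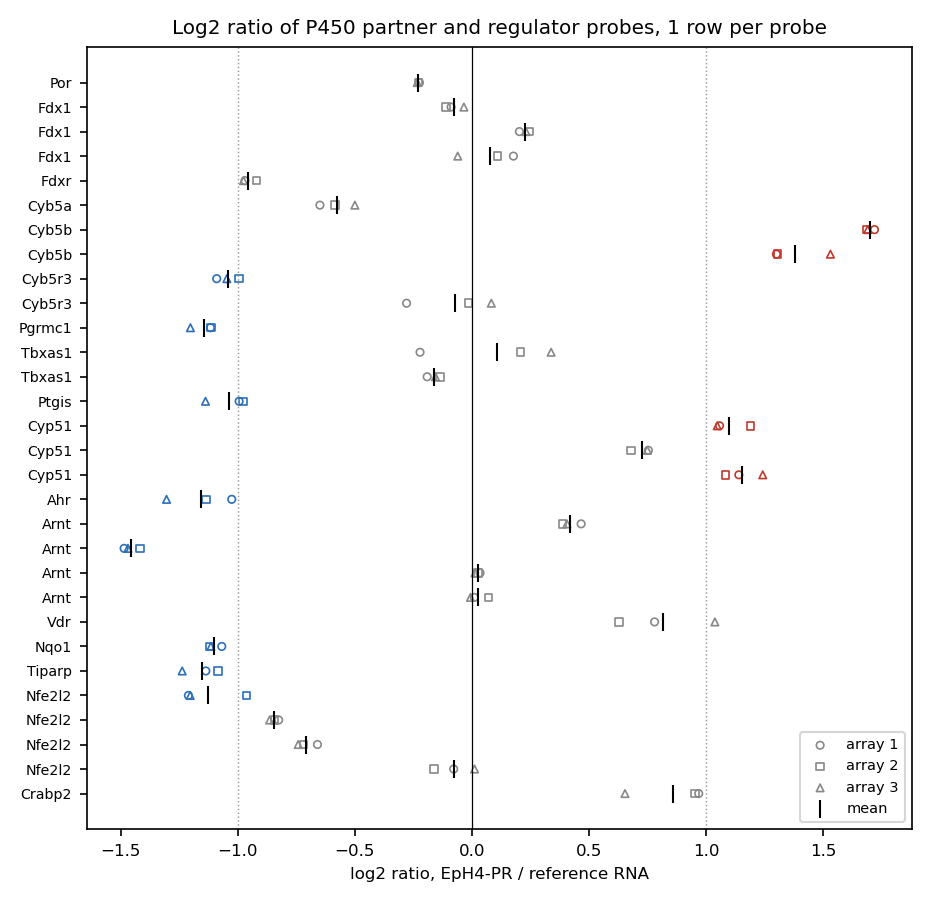
Log2 ratio (EpH4-PR cells over the reference) on each of 3 arrays (symbols) with the mean (bar), 1 row per probe, for redox partners, P450s under other names and selected regulators. Both Cyb5b probes lie above 1 on every array, and probes of Ahr, Nqo1 and Pgrmc1 lie below -1 on every array.

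Cell type markers were also read against the reference, where 2.26% of all probes were called higher and 3.83% lower. Of 10 luminal epithelial probes 8 were called higher, with Krt19 the probe called lower, and of 16 mesenchymal probes 8 were called lower. Basal and myoepithelial markers gave 1 call each way among 10 probes, blood markers 3 lower among 10, and adipocyte and endothelial markers 0 among 6 and 4. All 7 mesenchymal and all 5 basal and myoepithelial genes were detected in EpH4-PR cells, so a lower ratio does not mean absence. Vim read 1083, 923.5 and 917.5 there on its called probe, and Acta2 read 6064, 6353 and 6037 on its brightest probe. The 2 probes of Pgr were each well above background in EpH4-PR cells on 1 of 3 arrays. Their targets within the transcript are not given, so they do not test for the transfected receptor. Median Cy5 intensity over all probes was 112, 113 and 93.8, with a local background of 42, 43 and 42. By current RefSeq symbols the family held 104 probes of 74 genes, with the same 1 and 3 calls and 50 genes detected in EpH4-PR cells.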

How the data were processed

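EpH4-PR RNA and a common reference RNA shared each of 3 two-colour arrays. The authors deposited scanner output, with a spot intensity and local background intensity per channel, detection marks and a Cy5 to Cy3 ratio on the log10 scale (Agilent Feature Extraction 8.1.1.1, per the file headers). A deposited table of fold changes and p-values holds the authors' own comparison and was not used.

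Mean intensity was corrected with normexp (offset 50) and loess within each array in limma 3.58.1 (R 4.3.3), which sets the mean ratio at each brightness to 0. Control and outlier spots (150, 18 and 3) were left out, spots of a probe were averaged, and lmFit and eBayes tested each ratio against 0. The steps were run on simulated data with changes planted only on probes brighter than most Cyp probes. Recovery at the dim level of most Cyp probes was not tested. Intensities quoted include background. The limit at the 99th percentile of negative controls was applied to the scanner's processed intensity. The number of arrays limits the precision. Each array was on its own slide, so slide and array cannot be told apart.

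Members, lists and alternatives were chosen with earlier results of these data known. Named genes were called Cyp genes, the 8 highest and 8 lowest detected ratios without a call, reference-only genes, genes with discordant probes, the small role groups and called partner genes, of which 1 is not reported here. Symbols are those of the array, and 85 of 87 Cyp probes with a RefSeq accession matched the gene table of GRCm38.p6; the partner and marker genes carry their current symbols. Promoter sequences are from RefSeq, and Cyp7b1 was not analysed there. Alternatives covered background, normalisation, spot statistic, filter, outliers, variance trend, the methods' t-test, detection rule and each array left out.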

Additional observations from a re-analysis of the deposited data

How the results depend on the processing

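The 4 called Cyp probes kept their sign under every alternative run, and Cyp2c55 alone lost its size of 1 log2 unit, with median centring. Calls higher became 2 with offset 0, 3 with the scanner's log ratio and 2 with median centring, and calls lower became 6 with offset 0 and 7 with the scanner's ratio. Offset 0 added Cyp2a4 above and Cyp1a1, Cyp2b9 and Cyp39a1 below, the scanner's ratio added Cyp27b1 and Cyp4f16 above and Cyp2b9, Cyp2c40, Cyp39a1 and Cyp4a10 below, and median centring added Cyp17a1 above; the cause was not tested. The median log2 ratio became -0.13 with offset 0, -0.22 with median centring and -0.025 on bright probes. Genes seen in the reference alone became 7 with 2 of 3 arrays sufficing, 0 with the weaker positive mark and 0 against the negative controls, and 1 to 4 with each array left out (2 without array 1, 4 without array 2). Detected genes ran from 38 (every probe) to 63 (positive mark).

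Signs turned on named probes as follows. Those of Pgrmc1, Cyb5r3, Nqo1, Cyp2c37, Cyp26b1, Cyp4f13 and Cyp2j13, all with median centring, turned from ratios that had passed the test. Of these, Pgrmc1, Cyb5r3 and Nqo1 had been called. The other ratios that turned had not passed. With median centring, Pgrmc1 was 0.048, Cyb5r3 0.25, Nqo1 0.032, Cyp2c37 0.084, Cyp26b1 0.11, Cyp4f13 0.12, Cyp46a1 0.41, Cyp27b1 0.29, Cyp2j13 -3e-04, Cyp2g1 -0.11, Cyp4a10 -0.17, Cyp24a1 -0.13 and Cyp7a1 -0.034. With the scanner's ratio, Cyp1a2 was 0.075, Cyp21a1 0.21, Cyp2b13 0.47, Cyp4a10 -0.33, Cyp11a1 0.052 and Cyp46a1 0.16. With offset 0, the dim probes of Cyp1b1 and Cyp4a10 were 0.036 and 0.018, and with median spot intensity the dim probe of Cyp2s1 was 0.092. With arrays left out, the ranges that crossed 0 were -0.55 to 0.022 for Cyp11a1, -0.12 to 0.047 for Cyp4a10, -5e-04 to 0.085 for Cyp4f16, -0.095 to 0.018 for Cyp21a1, -0.045 to 0.015 for Cyp19a1 and -0.085 to 0.067 for Cyp1b1.

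Of 841 values of 61 named probes under alternatives, 721 kept sign and side of the threshold. A background taken from the negative controls, added after the data were seen, gave the same 1 and 3 calls. No paired analysis was possible because the arrays form 1 group against a common reference. The Cy3 level of the negative controls limits what can be said of reference signal.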
